A study of Mus musculus with 6 samples.

Results

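Ionotropic glutamate receptors are cation channels assembled from several subunits around a pore, and they fall into AMPA, kainate, delta and NMDA families. Metabotropic glutamate receptors (mGlu) are seven-helix receptors that signal through G proteins. GABA-A receptors are chloride channels and GABA-B receptors are dimers coupled to G proteins, and together they carry most inhibition in the brain. Genes of this kind can also give circular RNAs (circRNAs), in which the end of an exon is spliced back to the start of the same or an earlier exon. A read across that back-splice junction shows which ends were joined, but not which exons lie between them. Here such reads were the only RNA measured, so the linear mRNA of these genes was not.

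The genes described are 27 mouse genes for subunits of these receptors, chosen by name: 4 AMPA, 5 kainate, 1 delta, 4 NMDA, 5 mGlu, 6 GABA-A and 2 GABA-B genes. Of these, 25 were hosts of at least 1 listed circRNA, out of 5414 host genes in all. They gave 136 of the 18136 circRNAs and 1106 of the 190023 junction reads. The study sequenced circRNA-enriched RNA in 3 wild-type (WT) samples and 3 samples of A53T transgenic mice, a Parkinson's disease model. Brain is the tissue named on each sample, but the design text of the series refers to the substantia nigra, a midbrain nucleus. The sources used here do not give the promoter of the transgene, the strain, the age or whether the 3 samples of a group came from separate animals. The p-values therefore reflect sample-to-sample spread alone, some or all of which could be technical.

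Junction reads per library ran from 25217 to 36390, so 1 read stood for 27.5 to 39.7 CPM (counts scaled to the library total), and most circles rested on a handful of reads. Among marker genes of cell types, 7 of 10 for neurons were hosts, against 2 of 8 for astrocytes, 2 of 8 for oligodendrocytes, 2 of 6 for endothelium and 0 of 7 for microglia. None of 10 dopaminergic marker genes, tyrosine hydroxylase and the dopamine transporter included, had a listed circRNA. Linear RNA was not measured for any of these marker genes, so the counts do not tell which of them were expressed. Nor do they tell which cell types or which brain region were sampled. The transgene was not checked here. In bulk RNA of this kind, fewer cells of a type and less RNA per cell cannot be told apart.

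The back-splice junctions of the receptor circles that the results below turn on are printed here as DNA, 5′ to 3′, from GENCODE M21 transcripts (GRCm38). Lower-case letters are the last 20 nt of the circle's last exon, and capitals are the first 20 nt of its first exon, to which the last exon is joined in the circle. Positions are those of the deposited list (mm39). The first 8 form 4 pairs of related genes whose circles had the same length; the others are the most-read kainate receptor circle and the pair of circles whose counts did not overlap between WT and A53T.
Grin2b exons 6 to 10, chr6:135749191-135757334, minus strand: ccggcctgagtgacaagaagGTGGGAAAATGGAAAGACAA
Grin2a exons 4 to 8, chr16:9471260-9487774, minus strand: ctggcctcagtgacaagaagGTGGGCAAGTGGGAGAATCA
Grm7 exon 8, chr6:111335106-111336041, plus strand: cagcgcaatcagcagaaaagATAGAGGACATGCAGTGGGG
Grm8 exon 8, chr6:27363084-27364019, minus strand: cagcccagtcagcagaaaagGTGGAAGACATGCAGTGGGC
Gabrb1 exons 6 to 8, chr5:72265651-72279536, plus strand: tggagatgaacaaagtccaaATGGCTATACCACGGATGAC
Gabrb2 exons 7 to 9, chr11:42482685-42488612, plus strand: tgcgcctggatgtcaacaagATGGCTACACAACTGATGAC
Grik2 exons 2 to 3, chr10:49449660-49454398, minus strand: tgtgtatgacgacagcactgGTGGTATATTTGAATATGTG
Grik1 exons 2 to 3, chr16:87848223-87853063, minus strand: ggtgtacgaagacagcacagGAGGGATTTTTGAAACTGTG
Grik2 exons 2 to 6, chr10:49399778-49454398, minus strand: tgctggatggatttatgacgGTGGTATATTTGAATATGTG
Grin3a exons 2 to 3, chr4:49770419-49793032, minus strand: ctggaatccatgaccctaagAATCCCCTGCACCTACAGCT
Gabra2 exons 4 to 8, chr5:71163450-71192140, minus strand: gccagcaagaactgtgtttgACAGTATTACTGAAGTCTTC

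Most exonic receptor circles matched coding exons of their genes, as did most exonic circles of all hosts. The list called 85 of the 136 exonic, 26 intronic, 21 sense overlapping and 4 antisense, and the exonic ones held 84.4% of the receptor reads (86.6% over all circRNAs). Intronic circles held 7.32% of receptor reads, against 3.60% over all circRNAs, a description of these libraries with no test. All 85 exonic circles matched a run of annotated exons, 74 by genomic span and predicted spliced length and 11 by span alone. The exons inside a circle were not read, so the exons, lengths and sequences given for circles are those of the matched annotation. None held the first or the last exon of its transcript. Those exons lack a splice site on their outer side, so this follows from back-splicing itself and is not a trait of receptor circles. Of the 85, 79 lay wholly within coding sequence, and 5 held the start codon. The runs measured 156 to 2067 nt, with a median of 599 nt and 3 exons. Among the 74 matched by length, 12 (16.2%) were single exons, against 4.71% of the 12623 circles of all hosts matched in this way, and 14 (18.9%) began at exon 2, against 27.7%.

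**Figure D1:**
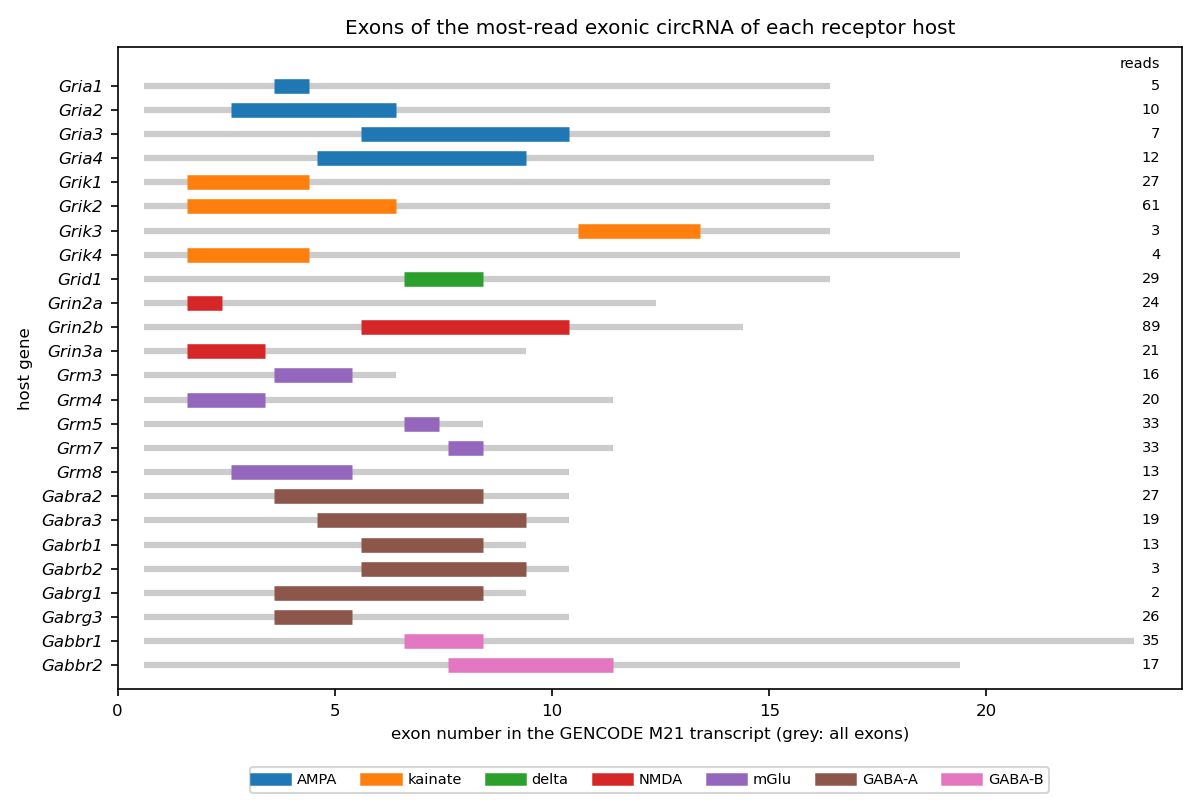
The exons matched to the most-read exonic circRNA of each of the 25 receptor hosts (coloured by receptor class) are drawn on the exon numbers of its transcript (grey). The circle's junction reads over all 6 libraries are at the right. The most-read circles are those of Grin2b (89 reads) and Grik2 (61 reads).

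Some related receptor genes gave circles from related exons. Exonic circles of different hosts were aligned in pairs within the ionotropic glutamate receptors, within the mGlu and GABA-B receptors together, and within the GABA-A receptors. Pairs across these families were not aligned, nor were pairs whose lengths differed by more than 1.5 times. Of the 492 pairs aligned, 11 reached 60% identity, a limit set after the values were seen. The median over all pairs aligned was 45.7%, and the highest below the limit was 59.6%. Of these 11, 4 were of equal length. Exons 6 to 10 of Grin2b and exons 4 to 8 of Grin2a each measured 885 nt and were 73.5% identical, with 31 of the 40 junction bases the same. Exon 8 of Grm7 and exon 8 of Grm8 each measured 936 nt, with 73.0% identity and 34 of 40 junction bases the same, the closest junctions of any of the 11. The Gabrb1 and Gabrb2 circles (536 nt) were 72.2% identical with 24 of 40 junction bases the same, and the Grik1 and Grik2 circles of exons 2 to 3 (426 nt) were 71.7% identical with 31 of 40. The read counts of the pairs, over all 6 libraries, were 89 against 4 for Grin2b and Grin2a, 33 against 9 for Grm7 and Grm8, 13 against 3 for Gabrb1 and Gabrb2, and 9 against 7 for Grik2 and Grik1. How the authors' counting treated reads from such similar exons is not stated in the sources used here, so the split of reads within a pair is uncertain to that extent.

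**Figure D2:**
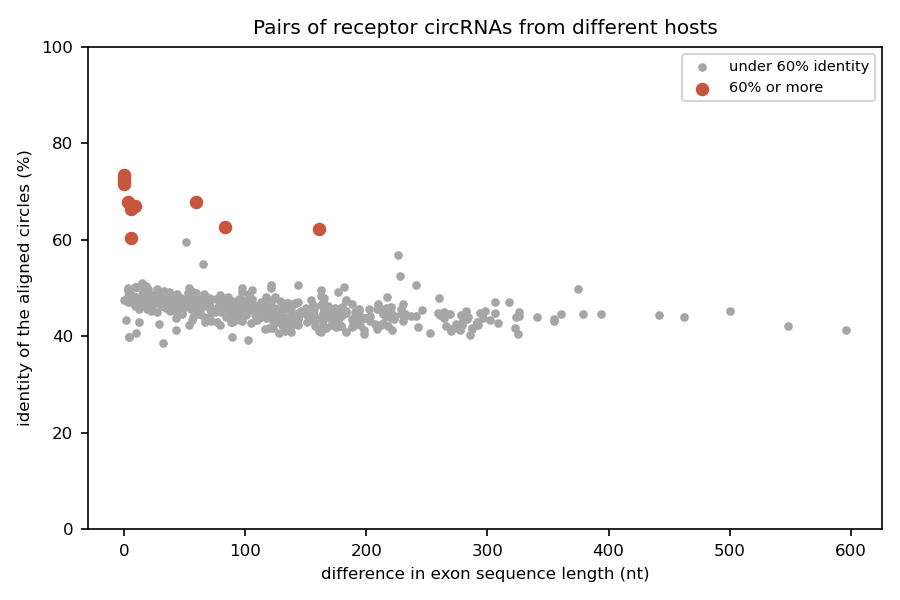
Each point is an aligned pair of exonic receptor circRNAs from different host genes of the same broad receptor family. Pairs are placed by the difference in their exon sequence length in nt (x axis) and the percent identity of their alignment (y axis). The 11 pairs at 60% identity or more (red) stand above the other pairs (grey, up to 59.6%), and 4 of them have no difference in length.

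The exons matched to the circles encoded from 0 to 6 hydrophobic stretches of the receptor. In the gene's own reading frame, these were counted as 19-residue windows, not overlapping each other, with a mean Kyte-Doolittle hydropathy above 1.6. Of the 85 circles, 47 held no such stretch, 32 held 1 to 3 and 6 held 4 or more, and the 47 without one gave 54.7% of the reads of exonic receptor circles. The single-exon circles of Grm5 (exon 7), Grm7 (exon 8) and Grm8 (exon 8) encoded 5 stretches each, and the Grm3 circle of exons 4 to 5 encoded 6. The paired Grin2a and Grin2b circles encoded 2 each and the paired Grik1 and Grik2 circles 0. The count does not tell membrane-spanning helices from other hydrophobic stretches. In Grm4, the circles of exon 2, exons 2 to 3 and exons 2 to 6, which hold the start codon, encoded 1 stretch each. Those of exons 3 to 6 and exons 4 to 6 encoded 0. These counts describe sequence content only, and translation was not measured.

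The receptor hosts together gave nearly the same share of junction reads in both genotypes. For WT replicates 1 to 3 the share was 0.674%, 0.561% and 0.551%, and for A53T replicates 1 to 3 it was 0.513%, 0.624% and 0.558%. The means were 0.595% ± 0.068 in WT and 0.565% ± 0.056 in A53T (SD, n = 3 each), and the groups overlapped. The 95% Wilson interval of WT replicate 1, the highest, was 0.592% to 0.768%, an interval for counting error only. The difference, A53T minus WT, was -0.030 percentage points and became 0.0093 without WT replicate 1. The libraries held 48 to 58 receptor circles each. Of the 136, 68 (50.0%) were read in a single library, against 50.7% of all circRNAs, and 13 (9.56%) in all 6, against 8.80%. Circles read in WT alone numbered 38 (27.9%; 29.1% of all circRNAs) and those read in A53T alone 37 (27.2%; 29.5% of all circRNAs), none with more than 5 reads.

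In the test across all genes, 1377 host genes had at least 5 reads in at least 3 libraries, 17 of them receptor hosts, and 0 passed at an adjusted p under 0.05 in edgeR's quasi-likelihood test with Benjamini-Hochberg adjustment (0% called). The smallest adjusted p was 0.243 over all hosts and 0.952 among the receptor hosts. At an unadjusted p under 0.05 the counts were 63 of all hosts (4.58%) and 1 of the 17 receptor hosts, Grm4. DESeq2 gave 0 adjusted and 48 unadjusted calls, and limma-voom 1 adjusted call, not a receptor host, and 66 unadjusted. The level in CPM did not overlap between the groups for 144 hosts (10.5%) and for 0 of the 17. The receptor hosts tested had 7 log2 fold changes above 0 and 10 below, with a median of -0.19 against 0.01 over all hosts tested. Their median became 0.035 without WT replicate 1 (12 tested), -0.041 without A53T replicate 3 (16 tested) and -0.072 with a replicate block. Leaving out WT replicate 1 also left fewer hosts past the filter, so the library and the set of hosts cannot be told apart in the change of sign. The standard errors ran from 0.35 for Grin2b to 1.02 for Gria4. The other 8 receptor hosts with circles had too few reads to pass the filter.

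**Figure D3:**
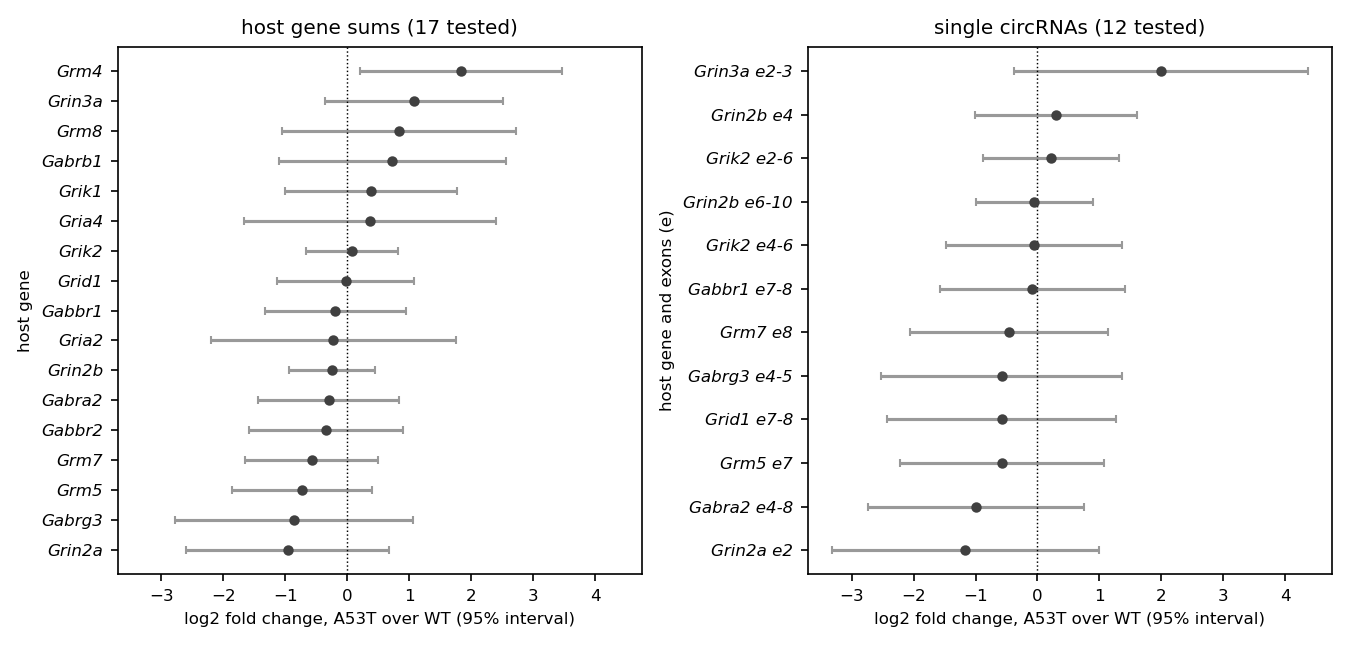
Log2 fold change of A53T over WT for the 17 tested receptor hosts (left) and the 12 tested receptor circRNAs (right; e, exons), with 95% intervals from edgeR. Grm4 is the only one whose unadjusted interval (0.21 to 3.47) leaves out 0, and its adjusted p was 0.952.

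Among single circRNAs, 1214 passed the same filter, 12 of them from receptor hosts, and 0 passed at an adjusted p under 0.05 (edgeR quasi-likelihood test, Benjamini-Hochberg; 0% called). At an unadjusted p under 0.05 the counts were 57 of all circRNAs (4.70%) and 0 of the 12. DESeq2 gave 0 adjusted and 51 unadjusted calls and limma-voom 1 and 56. The groups did not overlap for 137 circRNAs (11.3%) and for 2 of the 12, circles of Grin3a and Gabra2. Each of these reached 5 reads only in the libraries of the group where it was high, so the filter itself favoured their separation. The 12 fold changes had 3 above 0 and 9 below, with a median of -0.27 against -0.01 over all circRNAs tested. With limma-voom 6 of the same 12 were below 0 and their median was 0.0047, and it was 0.019 without WT replicate 1 (7 tested) and 0.096 without WT replicate 2 (8 tested).

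NMDA receptor genes gave the most reads of any class, 248 (22.4% of receptor reads), at 1353 ± 335 CPM in WT and 1232 ± 170 in A53T (SD, n = 3 each). Grin2b, whose product GluN2B carries a glutamate binding site, was the most-read host, with 47, 25 and 19 reads in WT and 18, 21 and 37 in A53T. WT replicate 1 was the highest and the groups overlapped (log2 fold change -0.25, SE 0.35; 0.15 without WT replicate 1). The circle of its exons 6 to 10 gave 28, 12 and 6 reads in WT and 11, 17 and 15 in A53T. Its single-exon circle of exon 4 (chr6:135899870-135900468) gave 8, 8 and 6 reads in WT and 5, 4 and 18 in A53T, where replicate 3 alone was above every WT library.

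Grin2a, which encodes the GluN2A subunit, gave 8, 15 and 2 reads in WT and 1, 8 and 3 in A53T, and 24 of its 37 reads came from exon 2 alone (chr16:9579255-9579847). That exon aligned with exon 4 of Grin2b at 66.4% identity. It had 6, 10 and 1 reads in WT and 1, 6 and 0 in A53T, so the groups overlapped (log2 fold change -1.16, SE 1.06; -0.57 without A53T replicate 3). Grin3a encodes GluN3A, a subunit that binds glycine. Its host sums were 2, 6 and 6 reads in WT and 13, 10 and 7 in A53T, which overlapped once scaled to the library totals (log2 fold change 1.08, SE 0.72, unadjusted p = 0.138 and adjusted p = 0.989 in edgeR; 0.68 without WT replicate 1). Its circle of exons 2 to 3, matched by span alone, had 0, 2 and 2 reads in WT and 7, 5 and 5 in A53T. Every A53T library was above every WT library, but the circle passed the filter through its A53T libraries alone, and with SE 1.17 the log2 fold change of 1.99 did not pass (edgeR adjusted p = 0.991). The ratio of pooled counts, A53T over WT, was 4.22 (95% interval 1.38 to 17.2, counting error only). Such a ratio was computed for the 30 receptor circles with at least 10 reads and reads in both groups. Of the 30 intervals, 26 included 1, and the others were those of this circle, Grm3 exons 4 to 5, Grm4 exons 2 to 3 and Grid1 exons 6 to 8. The matching share over all circRNAs was not computed, and the intervals leave out the spread between libraries, so no difference is drawn from them. The circle of exon 3 alone (chr4:49770419-49771466), which ends at the same splice site, had 1, 4 and 4 reads in WT and 4, 3 and 1 in A53T, so the groups overlapped; the difference between these circles was not tested. Grin1, which encodes the subunit shared by NMDA receptors, had no listed circRNA.

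AMPA receptor genes, which carry fast excitatory transmission, gave 83 reads (7.50%), at 504 ± 86 CPM in WT and 383 ± 153 in A53T. Gria1 gave 5, 6 and 3 reads in WT and 4, 0 and 2 in A53T. Gria2, whose edited product limits calcium entry, gave 6, 8 and 1 in WT and 5, 4 and 3 in A53T. Gria3 gave 0, 3 and 4 in WT and 0, 3 and 0 in A53T. The groups overlapped for each of these genes, as they did for Gria4, with 3, 1 and 7 reads in WT and 6, 7 and 2 in A53T. Only Gria2 and Gria4 were read enough to test (log2 fold change -0.23 and 0.36, SE 0.99 and 1.02; that of Gria4 became -0.14 without WT replicate 2, and that of Gria2 ran from -0.65 without WT replicate 3 to -0.077 without A53T replicate 3). The most-read AMPA circle was exons 5 to 9 of Gria4 (chr9:4502374-4537819), with 1, 0 and 5 reads in WT and 0, 5 and 1 in A53T. In Gria2 the circles of exons 3 to 5 and 3 to 6 gave 10 reads each, and in Gria3 that of exons 6 to 10 gave 7, all well short of the filter.

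Kainate receptor genes gave 200 reads (18.1%), at 993 ± 4.36 CPM in WT and 1115 ± 279 in A53T. These came from 33, 36 and 25 reads in WT and 33, 45 and 28 in A53T. Counting error on so few reads exceeds the WT SD, so that SD does not show a steadier level in WT. Grik2, which encodes the GluK2 subunit, gave 16, 27 and 19 reads in WT and 16, 25 and 24 in A53T, a log2 fold change of 0.07 (SE 0.37, 95% interval -0.67 to 0.82) that turned to -0.12 without WT replicate 1, -0.05 without A53T replicate 2 and -0.0042 without A53T replicate 3. Exons 2 to 6 formed a circle with 7, 11 and 10 reads in WT and 5, 14 and 14 in A53T. The shorter circle of exons 4 to 6 (chr10:49399778-49411595) gave 4, 10 and 6 in WT and 6, 7 and 6 in A53T. Both end at exon 6, where 3 Grik2 circles met with 104 reads, and the groups overlapped for each. The circle of exons 2 to 3, printed above, begins at the same exon as that of exons 2 to 6, so the capitals of the 2 junctions are identical, and it had 9 reads in all.

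Grik1 encodes GluK1, and its sums were 15, 2 and 4 reads in WT and 11, 12 and 4 in A53T (log2 fold change 0.38, SE 0.69; -0.11 without WT replicate 2). Its most-read circle, exons 2 to 4 (chr16:87831043-87853063), had 5, 2 and 2 reads in WT and 3, 11 and 4 in A53T. The groups overlapped in both. Grik3 gave 0, 3 and 2 reads in WT and 0, 8 and 0 in A53T, and Grik4 gave 2, 4 and 0 in WT and 6, 0 and 0 in A53T, so that single libraries held most of their A53T reads. Grik5 had no listed circRNA. Grid1, which encodes the delta subunit GluD1, a synaptic organiser, gave 11, 18 and 5 reads in WT and 10, 12 and 10 in A53T (log2 fold change -0.03, SE 0.55; 0.34 with WT replicate 2 left out and 0.01 with A53T replicate 3 left out). Its circle of exons 7 to 8 (chr14:35043598-35045391) had 5, 13 and 0 reads in WT and 7, 1 and 3 in A53T. The longer circle of exons 6 to 8 (chr14:35031189-35045391), picked out after its values were seen, had 5, 2 and 2 reads in WT and 0, 0 and 1 in A53T and was too low to test.

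Metabotropic glutamate receptor genes gave 237 reads (21.4%), at 1271 ± 464 CPM in WT and 1213 ± 414 in A53T, with genes leaning in both directions. Grm4, which encodes mGlu4, a presynaptic receptor abundant in the cerebellum, gave 1, 7 and 1 reads in WT and 5, 22 and 5 in A53T. A53T replicate 2 held 22 of the 32 A53T reads, and WT replicate 2 lay above the other 2 A53T libraries once scaled, so the groups overlapped. The log2 fold change was 1.84 (SE 0.81, 95% interval 0.21 to 3.47, unadjusted p = 0.0277 and adjusted p = 0.952 in edgeR). Without A53T replicate 2 it was 0.77, and the smallest adjusted p on leaving out any library was 0.417, without WT replicate 2. Its circle of exons 2 to 3 (chr17:27691882-27722507), 1 of the 5 receptor circles with a start codon, gave 1, 3 and 0 reads in WT and 1, 13 and 2 in A53T.

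Grm5 encodes mGlu5, a postsynaptic receptor that acts through Gq proteins. Its sums were 22, 9 and 12 reads in WT and 6, 4 and 16 in A53T, with WT replicate 1 the highest and A53T replicate 3 within the WT range (log2 fold change -0.73, SE 0.56, edgeR adjusted p = 0.989). It was -0.37 without WT replicate 1, -0.40 without A53T replicate 2 and -1.48 without A53T replicate 3. Its single-exon circle of exon 7 (chr7:87723399-87724338) gave 15, 1 and 4 reads in WT and 5, 3 and 5 in A53T. Grm7, the gene of presynaptic mGlu7, gave 23, 8 and 12 reads in WT and 6, 8 and 15 in A53T, again overlapping (log2 fold change -0.58, SE 0.54, adjusted p = 0.989 in edgeR). Leaving out WT replicate 1 gave -0.15, A53T replicate 1 -0.38, WT replicate 2 -0.93 and A53T replicate 3 -1.02. Its exon 8 circle gave 9, 3 and 7 reads in WT and 1, 5 and 8 in A53T. Grm8, the gene of mGlu8, gave 5, 6 and 0 reads in WT and 3, 12 and 4 in A53T (log2 fold change 0.84, SE 0.94; 0.33 without WT replicate 3). Its most-read circle was exons 3 to 5 (chr6:27760173-27762496), with 5, 3 and 0 reads in WT and 1, 2 and 2 in A53T, and its exon 8 circle had 0, 2 and 0 and then 2, 5 and 0. Groups overlapped in all of these.

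Grm3, the gene of mGlu3, found on neurons and astrocytes, gave 8, 2 and 4 reads in WT and 2, 2 and 7 in A53T. Its sense circle of exons 4 to 5 (chr5:9554725-9562524) gave 8, 2 and 4 reads in WT and 0, 2 and 0 in A53T, so the groups touched at 2 reads. The ratio of pooled counts, WT over A53T, was 7.05 (95% interval 1.62 to 63.9, counting error only), 1 of the 4 among 30 whose interval left out 1, and the circle was too low to test. Of the 7 reads in A53T replicate 3, 6 came from 2 circles listed as antisense to Grm3, with 3 reads each, and 1 of these had the same ends as the sense circle. The 3 reads of that antisense circle are not in the ratio above, which would be smaller with them. No difference is drawn from the ratio. The list gives the same ends on both strands as separate circRNAs with separate counts, so reads were assigned to a strand. How this was done is not stated in the sources used here, so whether these antisense reads were sense reads cannot be told.

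GABA-A receptor genes gave 153 reads (13.8%), at 793 ± 180 CPM in WT and 806 ± 154 in A53T. Gabra2, which encodes the alpha2 subunit, gave 9, 11 and 14 reads in WT and 11, 9 and 8 in A53T (log2 fold change -0.30, SE 0.57; 0.043 without WT replicate 3). Its circle of exons 4 to 8, printed above, gave 5, 6 and 7 reads in WT and 1, 4 and 4 in A53T. Every WT library was above every A53T library, but the circle passed the filter through its WT libraries alone, and the log2 fold change of -0.99 (SE 0.86; -0.60 without A53T replicate 1) did not pass. An intronic circle of the same gene (chr5:71214892-71215601) gave 2, 0 and 4 reads in WT and 5, 3 and 4 in A53T, and these overlapped. Gabra3, on the X chromosome and the gene of the alpha3 subunit, gave 1, 6 and 1 reads in WT and 1, 4 and 8 in A53T, of which 19 of 21 came from exons 5 to 9 (chrX:71488781-71544905).

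Gabrb1, the gene of the beta1 subunit, gave 3, 9 and 0 reads in WT and 3, 6 and 10 in A53T (log2 fold change 0.73, SE 0.92; 0.21 without WT replicate 3). A circle of exons 6 to 8 had 3, 2 and 0 reads in WT and 2, 4 and 2 in A53T. Gabrb2 was near the limit of detection, with 0, 3 and 0 reads in WT and 3, 0 and 2 in A53T. Gabrg1, the gene of the gamma1 subunit, was read in 1 library alone, with 2 reads in A53T replicate 2. Gabrg3, the gene of the gamma3 subunit, gave 8, 7 and 4 reads in WT and 6, 0 and 4 in A53T (log2 fold change -0.85, SE 0.96; -0.30 without A53T replicate 2), and 26 of its 29 reads were from exons 4 to 5 (chr7:56632373-56634911), with 8, 7 and 1 reads in WT and 6, 0 and 4 in A53T. None of these genes had groups that stood apart.

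The GABA-B receptor genes, whose products GABA-B1 and GABA-B2 bind GABA and couple to G proteins respectively, gave 119 reads (10.8%), at 698 ± 182 CPM in WT and 568 ± 117 in A53T. Gabbr1 gave 9, 13 and 11 reads in WT and 7, 10 and 12 in A53T (log2 fold change -0.19, SE 0.57; from -0.37 without A53T replicate 3 to -0.054 without WT replicate 3). Its leading circle, exons 7 to 8 (chr17:37365023-37365799), was among the steadiest, with 4, 7 and 7 reads in WT and 6, 7 and 4 in A53T. Gabbr2 gave 19, 5 and 8 reads in WT and 10, 12 and 3 in A53T (log2 fold change -0.34, SE 0.62; 0.28 with WT replicate 1 left out and 0.05 with A53T replicate 3 left out). The leading circle, exons 8 to 11 (chr4:46734058-46749582), had 9, 2 and 0 reads in WT and 1, 4 and 1 in A53T. Both genes overlapped between the groups.

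**Figure D4:**
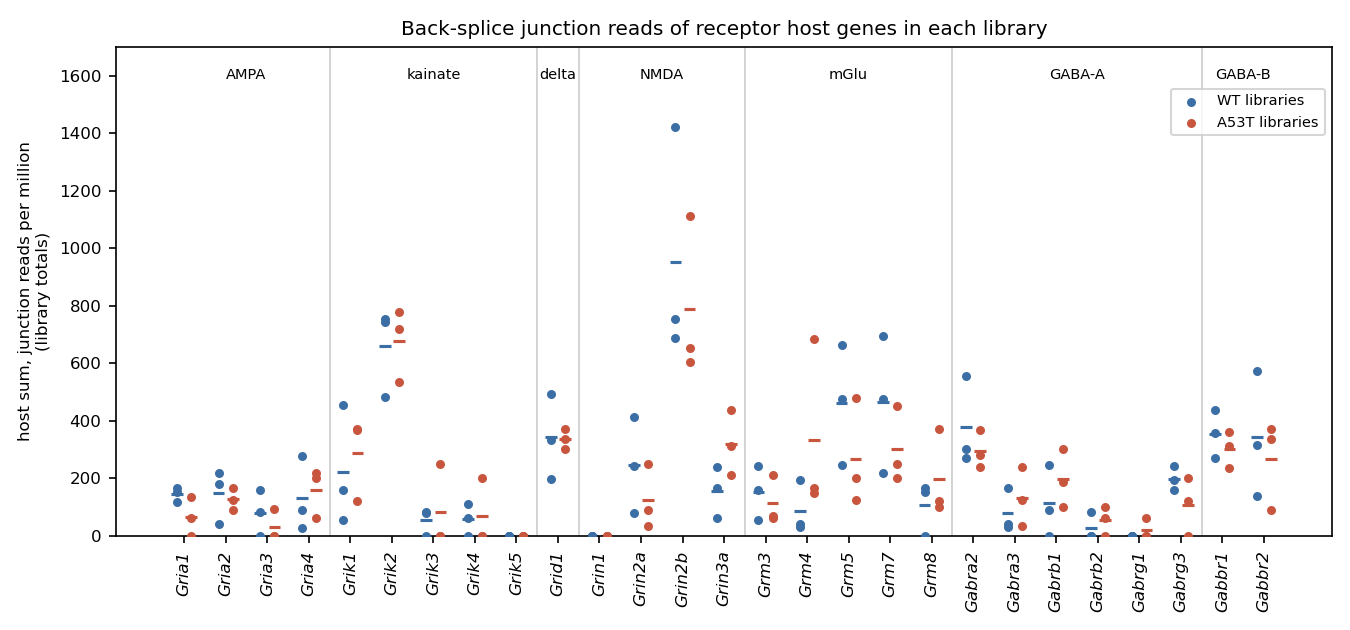
Junction reads of each of the 27 receptor genes in each library, summed over its circRNAs as CPM of the library total; points are libraries and bars are group means (n = 3 each). Grin2b and Grik2 are the highest, Grik5 and Grin1 lie at 0, and WT and A53T overlap for every gene with enough reads to test.

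**Figure D5:**
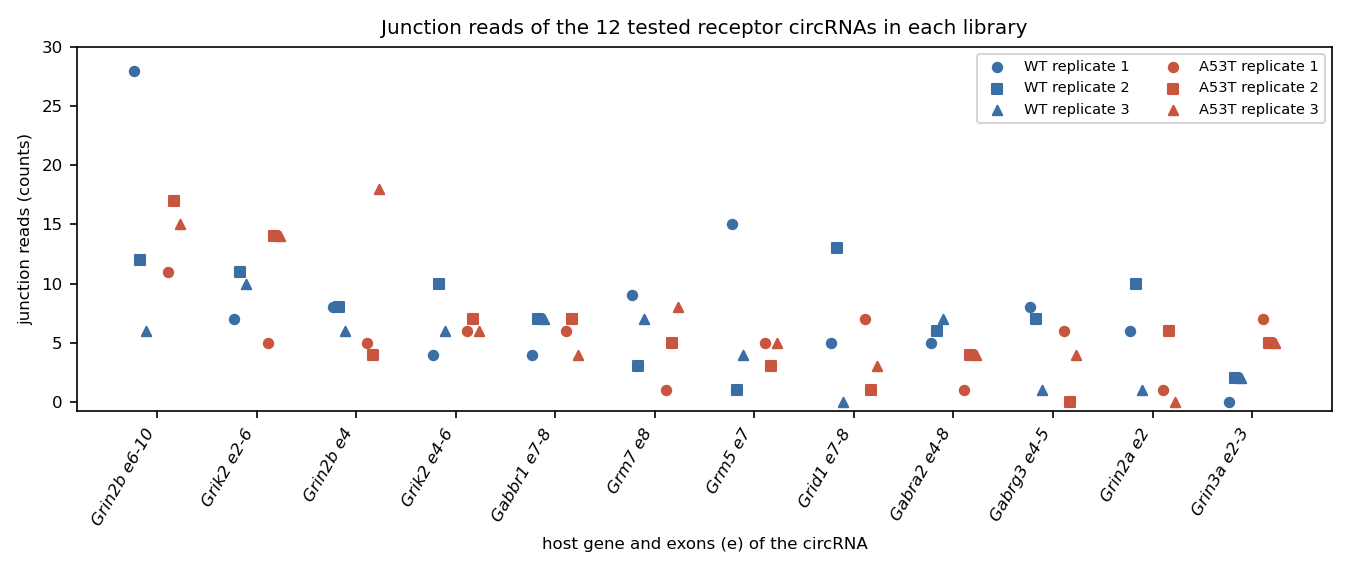
Unscaled junction reads in each library for the 12 receptor circRNAs tested (e, exons), ordered by total reads. The circles of Grin3a (exons 2 to 3) and Gabra2 (exons 4 to 8) are the ones whose 3 WT and 3 A53T libraries do not overlap.

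The circles of related genes did not pass the test either. Of 27 genes for proteins that assemble, traffic or anchor these receptors, 16 were hosts and 4 could be tested, with 0 calls. Among their log2 fold changes were -0.21 (SE 0.51) for Gphn (gephyrin), which anchors GABA-A receptors, -0.13 (SE 0.28) for Grip1, an AMPA receptor scaffold, and 0.06 (SE 0.87) for Nsf, a fusion ATPase that binds GluA2. Of 19 genes for making, moving or clearing glutamate and GABA, 8 were hosts and 3 could be tested, with 0 calls. Among them, Slc1a2, the main astrocytic glutamate transporter, had 5, 0 and 0 reads in WT and 3, 6 and 5 in A53T (log2 fold change 1.44, SE 1.37, 95% interval -1.29 to 4.18). Slc38a1, a glutamine transporter, had 4, 14 and 3 reads in WT and 12, 5 and 0 in A53T (-0.19, SE 0.82). Of 20 other subunit genes of the same receptor families, 7 were hosts, with 125 reads in all, and 1 could be tested, with 0 calls. The 7 hosts gave 0.0742% to 0.0952% of the reads of a WT library and 0.0420% to 0.0536% of those of an A53T library. These ranges did not overlap, and the difference was not tested. Single host genes tested did not overlap in 10.5% of cases, but the matching share for sums of several hosts was not computed. The neuronal marker hosts gave 0.127% to 0.195% in WT and 0.0720% to 0.137% in A53T, and their part in it was not tested.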

How the data were processed

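Total RNA was enriched for circRNA and sequenced as directional libraries, per the labels' protocols. The authors deposited 1 table of back-splice junction counts per circRNA and sample, with a predicted length per circRNA as an annotation. Per the submitters' processing notes, cutadapt 1.9.3, STAR, edgeR 3.16.5 and the mm39 build were used. For the circRNA caller, the annotation and the way reads were assigned to a strand, nothing is given in the sources used here. Counts were summed by host gene name and tested with edgeR 4.0.16 (R 4.3.3; TMM, robust quasi-likelihood fit, two-sided, at least 5 reads in at least 3 of 6 libraries, Benjamini-Hochberg over all features, threshold 0.05), after the steps were tested on simulated data. Alternatives used DESeq2 1.42.0 and limma 3.58.1. The 338 circRNAs with no gene name stayed out of host sums. Exonic circles were matched to GENCODE M21 transcripts by gene, span and exon length, with no conversion of coordinates, and aligned with Biopython 1.88. All receptor genes, each tested circle and each gene's most-read circle were to be named, with up to 2 tested genes per direction from each list. Members and lists were chosen with earlier results of these data known. Some genes of the lists are not reported here.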

Additional observations from a re-analysis of the deposited data

How the results depend on the processing

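Depth limits these values: with single circles at 0 to 28 reads a library, differences within the intervals given were not detectable. Scaling, filters, DESeq2, limma-voom, a replicate block and leaving out each library were tried. No receptor host or circle was called under any of them. Over all features, limma-voom called 1 host and 1 circRNA, a filter of 10 reads called 1 circRNA, and leaving out single libraries called 0 to 1 circRNAs (1 without A53T replicate 2 and 1 without A53T replicate 3) and 0 hosts. With no filter, unadjusted calls were 129 hosts and 214 circRNAs. The share difference ran from -0.0598 to 0.0093 on leaving out libraries and changed sign without WT replicate 1. Same-numbered WT and A53T libraries had correlations of 0.024, 0.011 and -0.013, against -0.051 to 0.038 for the other WT and A53T pairs. At this depth counting error could hide a shared effect, so whether the numbers pair the samples cannot be told. With the replicate block 0 hosts (63 unadjusted) and 0 circRNAs (47 unadjusted) were called. In that fit Grid1 turned to 0.038 and the Grin2b circle of exons 6 to 10 to 0.089. With limma-voom that circle turned to 0.10, the Grik2 circle of exons 4 to 6 to 0.039 and the Grm5 circle to 0.10. Log2 fold changes that changed sign on leaving out a library ranged, for hosts, from -0.74 to 0.28 (Gabbr2), -0.50 to 0.043 (Gabra2), -0.14 to 0.75 (Gria4), -0.30 to 0.34 (Grid1), -0.11 to 0.73 (Grik1), -0.12 to 0.19 (Grik2) and -0.61 to 0.15 (Grin2b). For circles they ranged from -0.34 to 0.24 (Grik2 exons 4 to 6), -0.34 to 0.19 (Gabbr1), -1.04 to 0.0054 (Grm7), -0.35 to 0.66 (Grin2b exons 6 to 10), -0.63 to 0.67 (Grin2b exon 4) and -0.99 to 0.0064 (Gabrg3). The cause was not tested.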

Other observations

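Of the 4 receptor circles listed as antisense, 3 had the same ends as a sense circle of the gene, in Gabbr2, Grm3 and Gabrb1; over all hosts this held for 194 of 372 (52.2%). All 4 were read in A53T libraries alone, with 2 or 3 reads each, as were 167 of the 372 antisense circRNAs (44.9%). Of the 136 receptor circles, 72 (52.9%) shared an end with another circle of the same gene, against 55.9% over all named hosts. Across the 27 genes, the genomic span of the gene and its junction reads had a Spearman correlation of 0.52, and span and number of circles one of 0.60, a description across genes that are not independent. Grin1 and Grik5, with no listed circle, span 28.0 and 62.5 kb, while Gabbr1 gave 6 circles from 29.1 kb.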
